A study of Mus musculus with 12 samples.

Results

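The genes described are MYC, its textbook target ornithine decarboxylase, and factors that build ribosomes in the nucleolus, 37 genes in all. They were taken from a list of gene names drawn up with earlier results of these data known, and each of the 37 symbols matched a row of the 37991 genes in the deposited table. All 37 also passed the filter on low values (at least 1 FPKM in at least 3 libraries), which kept 11213 genes. FPKM values count fragments scaled by transcript length and by the size of the library, so levels of different members can be compared. Mean member levels over the 12 libraries ran from 8.94 FPKM (Utp20) to 179.5 FPKM (Npm1), with a median of 31.4 FPKM.

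MYC is a transcription factor that pairs with MAX and binds E-box sites at genes of growth and of ribosome production. Ribosomes are built in the nucleolus: RNA polymerase I transcribes a long precursor of ribosomal RNA, small nucleolar ribonucleoproteins (snoRNPs) guide its chemical modification, and assembly factors cut and fold it into the small and large subunits. In the liver this machinery is known to be switched on when hepatocytes prepare to grow, as in regeneration or after plating.

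Messenger RNA was measured in primary hepatocytes, the main cells of the liver, from male mice 10 weeks old. Both REV-ERB genes, Nr1d1 and Nr1d2, were floxed in every group. They encode transcriptional repressors of the circadian clock, REV-ERBα and REV-ERBβ, and SR9009 is a synthetic compound used as their agonist. The study concerns actions of SR9009 that do not need these receptors, so SR9009 was compared with its solvent in control and in Cre-treated cells. The mice had received AAV8 virus 2 weeks earlier, in which the hepatocyte promoter TBG drove Cre with GFP (called KO-labelled below) or GFP alone (control). The cells were plated on collagen and treated for 8 h with the solvent DMSO or with 10 µM SR9009. Genotype and treatment together give 4 groups of 3 libraries. No group had Cre without floxed genes, so an effect of Cre and an effect of REV-ERB loss cannot be told apart. The labels do not say whether replicates came from separate mice or plates, so the p-values speak only of the spread among these libraries, and that spread may be technical.

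The libraries summed to 538521 to 604449 FPKM, with 10611 to 10932 genes at 1 FPKM or more. Relative to control DMSO library 1, set at 100%, depth was 55.5% in control SR9009 library 1, 63.4% in KO-labelled DMSO library 1 and 77.0% to 92.3% in the others. The levels of Nr1d1 were 18.3, 18.3 and 19.0 FPKM in control DMSO and 17.4, 17.5 and 18.3 FPKM in KO-labelled DMSO. With SR9009 Nr1d1 was at 20.1, 19.0 and 19.4 FPKM in control and 22.5, 21.5 and 22.2 FPKM in KO-labelled cells, where it was higher than in control (adjusted p = 0.0429) and than with DMSO (adjusted p = 0.00472). The first of these calls was lost without any 1 library other than control SR9009 library 1 (adjusted p = 0.0508 to 0.118). Nr1d2 was at 13.9, 14.7 and 17.4 FPKM in control DMSO and 16.3, 16.2 and 16.1 FPKM in KO-labelled DMSO, and at 16.7, 15.7 and 13.5 and 15.9, 18.2 and 18.9 FPKM with SR9009, with no comparison past the threshold. Neither gene was thus called lower in the libraries labelled KO. Which exons Cre removes was not stated and each value covers a whole gene, so these levels test neither the deletion nor the labels. All 7 hepatocyte markers were present, summing to 31226 to 31693 FPKM in control DMSO and 27616 to 29529 FPKM in control SR9009. They summed to 32187 to 34353 FPKM in KO-labelled DMSO and 30117 to 30968 FPKM in KO-labelled SR9009. With SR9009, 4 of these 7 markers fell in each genotype. In bulk samples fewer cells of a type and less RNA per cell cannot be told apart.

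To show the sequence at which MYC could act, promoters were read from the RefSeq table (build GRCm38.p6), which covers 250 bases before to 50 after each start. The table held promoters of 32 of the 37 members, and none for Myc, Npm1, Fbl, Rrp12 or Bop1. The only motif searched was CACGTG, the E-box that MYC with MAX is known to bind, which reads the same on both strands. It was present in 7 of these 32 members (21.9%), against 12.7% of the 7500 tested genes with a promoter. Over the whole table it was present in 8.09% of the 27025 genes and in 7.15% of the 32851 promoters. The 7 sites are printed 5′ to 3′ on the gene's strand, with the motif in capitals and up to 10 bases on each side. They lie at chr6:125131813-125131838 (Nop2), chr11:3963967-3963992 (Pes1), chr17:71616222-71616247 (Wdr43), chr11:74898094-74898119 (Tsr1), chr7:45830740-45830765 (Grwd1), chr10:88826765-88826787 (Utp20) and chr11:72441357-72441376 (Mybbp1a). The genes of Grwd1 and Utp20 are on the minus strand and the other 5 on the plus strand.
Nop2: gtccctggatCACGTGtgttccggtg
Pes1: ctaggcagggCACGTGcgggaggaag
Wdr43: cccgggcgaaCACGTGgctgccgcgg
Tsr1: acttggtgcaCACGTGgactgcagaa
Grwd1: gccggagtcgCACGTGtgaaaccgga
Utp20: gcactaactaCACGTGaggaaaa
Mybbp1a: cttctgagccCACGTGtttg
The Nop2 site began 60 bases before the annotated start, and those of the other 6 began 2 to 40 bases after it.

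The 250 bases before the start are given for Grwd1, Wdr43 and Nop2. These are the 3 members with CACGTG whose level changed most with SR9009 in control cells. The same stretch is given for Rrp1b, which changed most among the 25 members with a promoter in the table and no CACGTG. Only in Nop2 does the motif, in capitals, fall in this stretch. The stretches are chr7:45830790-45831039 on the minus strand (Grwd1), and on the plus strand chr17:71615965-71616214 (Wdr43), chr6:125131633-125131882 (Nop2) and chr17:32035912-32036161 (the first of 2 Rrp1b promoters).
Grwd1: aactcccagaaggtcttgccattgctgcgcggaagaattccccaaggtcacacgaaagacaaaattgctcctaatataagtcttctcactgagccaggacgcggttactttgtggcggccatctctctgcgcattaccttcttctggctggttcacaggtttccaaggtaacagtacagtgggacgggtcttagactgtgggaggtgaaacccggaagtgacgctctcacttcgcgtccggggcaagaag
Wdr43: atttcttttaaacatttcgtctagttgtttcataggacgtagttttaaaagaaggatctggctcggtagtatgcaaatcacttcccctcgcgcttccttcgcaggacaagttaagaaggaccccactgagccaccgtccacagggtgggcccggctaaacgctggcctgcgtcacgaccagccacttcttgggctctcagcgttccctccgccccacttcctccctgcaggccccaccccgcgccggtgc
Nop2: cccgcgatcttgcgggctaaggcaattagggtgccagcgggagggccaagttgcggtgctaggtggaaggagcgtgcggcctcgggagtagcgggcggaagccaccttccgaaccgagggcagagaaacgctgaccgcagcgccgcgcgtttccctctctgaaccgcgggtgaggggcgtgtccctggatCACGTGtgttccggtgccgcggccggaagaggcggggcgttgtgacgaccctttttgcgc
Rrp1b: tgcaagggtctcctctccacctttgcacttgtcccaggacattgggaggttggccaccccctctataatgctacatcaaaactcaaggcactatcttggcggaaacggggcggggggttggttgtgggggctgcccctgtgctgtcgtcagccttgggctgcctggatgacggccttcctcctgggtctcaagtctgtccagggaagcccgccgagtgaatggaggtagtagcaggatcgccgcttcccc
A match to these letters is a description of the sequence, not evidence that a factor binds. The median log2 change with SR9009 in control cells was 0.27 over the 7 members with CACGTG, 3 of which rose, and 0.28 over the 25 without it, 15 of which rose.

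In control hepatocytes SR9009 raised 21 of the 37 members and lowered 0 (limma, Benjamini-Hochberg adjusted p under 0.05). That is 56.8% of the members, while 8.24% of all 11213 genes passed, 3.69% higher and 4.55% lower. In KO-labelled hepatocytes 17 members rose and 0 fell, 45.9% of the members, while 9.87% of all genes passed, 5.32% higher and 4.56% lower. The median member log2 change was 0.27 in both genotypes, beside -0.02 over all genes in control and 0.00 in KO-labelled cells. All 37 estimates were above 0 in control, and 36 of 37 in KO-labelled cells, Polr1c being at -0.05. The control SR9009 libraries lay wholly above the control DMSO libraries for 30 members (10.8% of all genes), and the KO-labelled SR9009 libraries above the KO-labelled DMSO libraries for 30 members as well (16.9% of all genes).

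The shift was of similar size in each library. The 37 members together summed to 1543, 1506 and 1534 FPKM in control DMSO and to 1878, 1844 and 1870.4 FPKM in control SR9009. They summed to 1418, 1414 and 1378 FPKM in KO-labelled DMSO and to 1768, 1753 and 1667 FPKM in KO-labelled SR9009. Every SR9009 library was above every DMSO library, and in these sums the KO-labelled libraries were below the control libraries under either treatment. As a share of all FPKM the members made up between 0.262% and 0.275% in control DMSO, and between 0.252% and 0.263% in KO-labelled DMSO. With SR9009 the shares were 0.309% to 0.335% in control and 0.307% to 0.319% in KO-labelled cells, so by share the treatments were separate and the genotypes overlapped. Against the control DMSO mean, 35 to 37 of the 37 members were higher in each control SR9009 library and 32 to 35 in each KO-labelled SR9009 library.

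**Figure D1:**
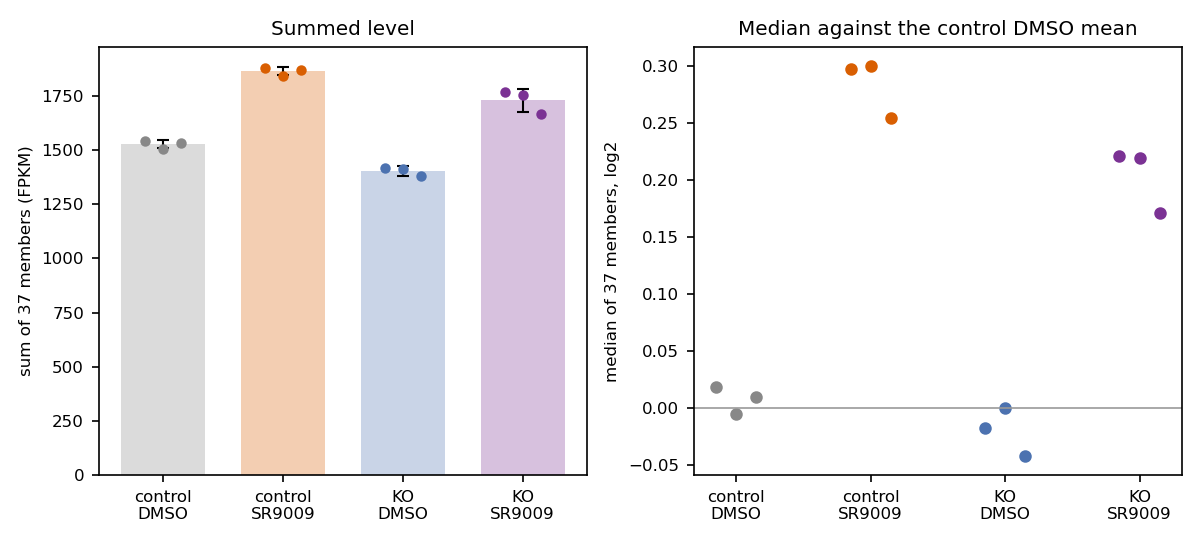
Left, summed level of the 37 members in FPKM for each of the 12 libraries (points), with the group mean (bar) and SD (error bar, n = 3). Right, the median over the 37 members of the log2 ratio of each library to the control DMSO mean; the 6 SR9009 libraries sit between 0.17 and 0.30 and the 6 DMSO libraries between -0.04 and 0.02.

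The count in control cells rested on small changes near the threshold. It was 10 without control DMSO library 2 and 13 without control DMSO library 3, 13 with the shallowest pair left out, and 8 in a fit of the 6 control libraries alone, always with 0 members lower. In all of the alternatives run, Myc, Ncl, Dkc1, Rrp9, Nop2 and Grwd1 passed in control cells, and 13 of the 17 passed in KO-labelled cells (all except Wdr12, Ftsj3, Ebna1bp2 and Nip7).

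**Figure D2:**
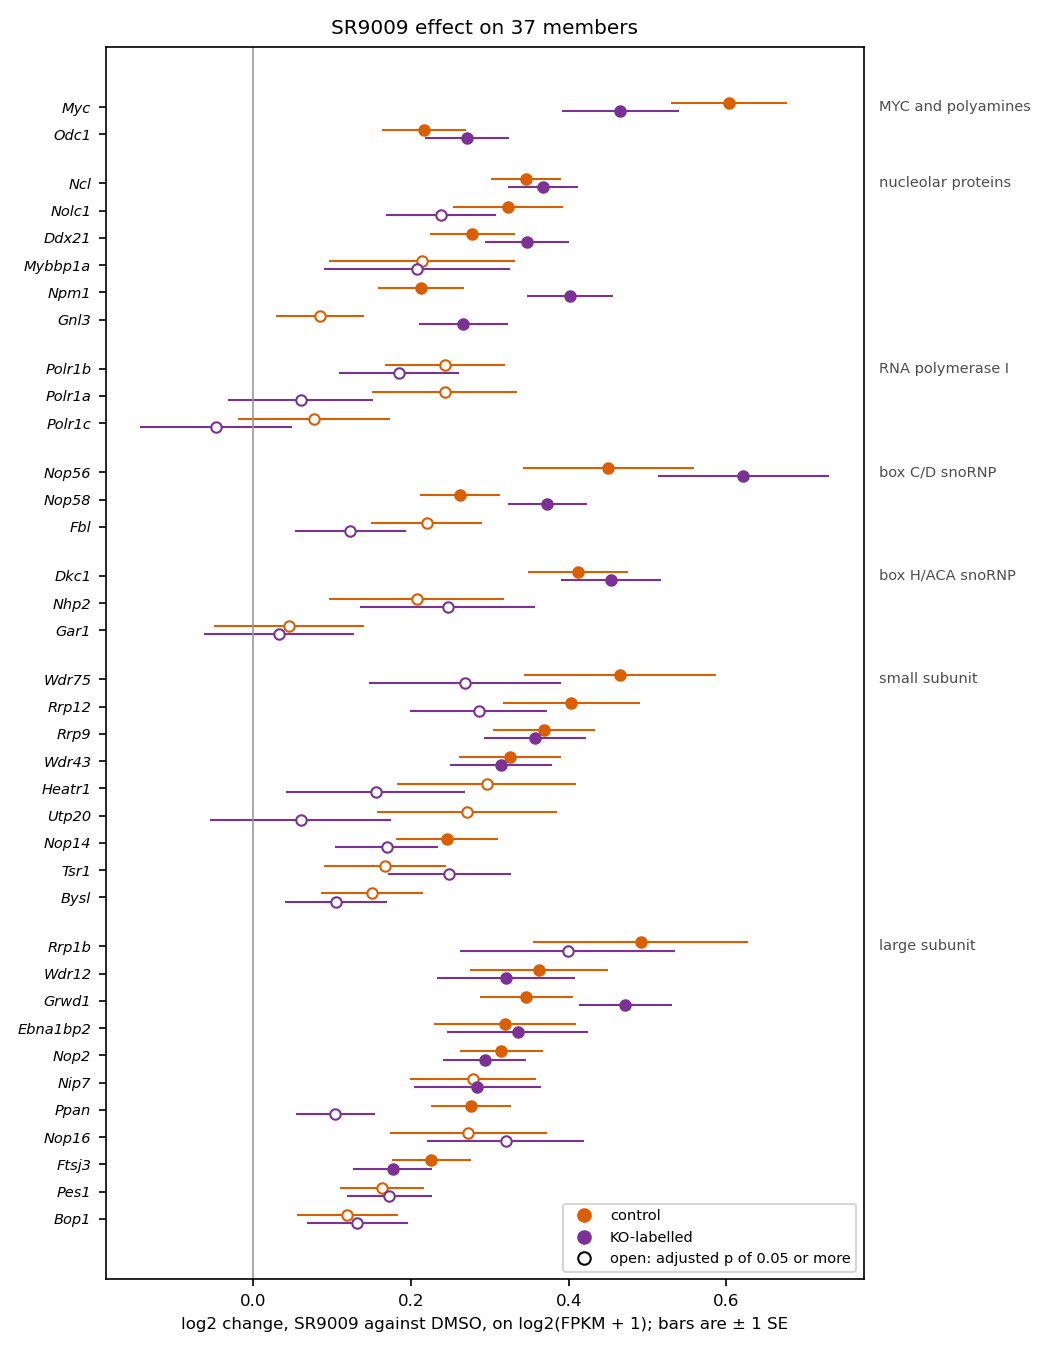
Log2 change with SR9009 against DMSO of the 37 members (rows, grouped by role) in control (orange) and KO-labelled cells (purple), on the log2(FPKM + 1) scale with ± 1 SE; filled points passed an adjusted p of 0.05. All 21 and 17 filled points lie to the right of 0, and the 3 subunits of RNA polymerase I are open in both genotypes.

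Myc (chromosome 15, 61816946 to 61821929 in the coordinates of the deposited table, build mm9) showed the largest change of any member in control cells. Its level was 94.2, 85.9 and 91.9 FPKM in control DMSO and 149, 128 and 139 FPKM in control SR9009. In KO-labelled cells it was 79.4, 78.5 and 77.1 FPKM with DMSO and 107, 120.1 and 99.9 FPKM with SR9009. No groups overlapped: Myc was lowest in KO-labelled DMSO, then came control DMSO, KO-labelled SR9009 and control SR9009. It rose with SR9009 1.53-fold in control (log2 change 0.60, SE 0.07, adjusted p = 0.000507) and 1.39-fold in KO-labelled cells (log2 change 0.47, SE 0.07, adjusted p = 0.00193). Odc1, the enzyme that commits ornithine to polyamines, was at 105, 103 and 103 FPKM in control DMSO and 125, 116 and 121 FPKM in control SR9009. In KO-labelled cells it was at 77.2, 77.0 and 77.3 FPKM with DMSO and 100.3, 88.9 and 91.2 FPKM with SR9009. Odc1 was the one member with a called change whose KO-labelled SR9009 libraries all stayed below the control DMSO libraries. With SR9009 it rose in control (log2 change 0.22, SE 0.05, adjusted p = 0.0276) and in KO-labelled cells (log2 change 0.27, SE 0.05, adjusted p = 0.00697). The call of Odc1 in control was lost without control DMSO library 1, 2 or 3 or control SR9009 library 1 (adjusted p = 0.0686 to 0.0887).

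Among the 6 nucleolar proteins, 4 rose in each genotype, beside 3.69% of all genes in control and 5.32% in KO-labelled cells. Nucleolin (Ncl), which binds nascent ribosomal RNA, was tightly grouped at 77.9, 78.2 and 78.2 FPKM in control DMSO and 98.4, 101 and 98.9 FPKM in control SR9009. In KO-labelled cells Ncl was at 70.6, 70.0 and 69.8 FPKM with DMSO and 91.0, 93.9 and 87.5 FPKM with SR9009. Ncl rose by 0.35 log2 units in control (adjusted p = 0.000655) and 0.37 in KO-labelled cells (adjusted p = 0.000326). Nucleophosmin (Npm1), a histone and ribosome chaperone and the most abundant member, was at 179, 183 and 177 FPKM in control DMSO and 202, 199 and 224 FPKM in control SR9009. In KO-labelled cells Npm1 was at 143, 140.3 and 143 and 196, 189.9 and 179 FPKM. The genome holds processed copies of Npm1 that can take some of its reads, so its level is uncertain. Npm1 rose in control (log2 change 0.21, SE 0.05, adjusted p = 0.033) and in KO-labelled cells (log2 change 0.40, SE 0.05, adjusted p = 0.000678). The call in control was lost without control DMSO library 1, 2 or 3, control SR9009 library 1 or 3, KO-labelled DMSO library 2 or 3 or KO-labelled SR9009 library 2 (adjusted p = 0.0506 to 0.109).

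Ddx21, an RNA helicase of the nucleolus, was at 52.7, 52.7 and 53.3 FPKM in control DMSO and 65.4, 68.1 and 59.9 FPKM in control SR9009, and at 45.0, 43.8 and 45.2 and 56.1, 57.8 and 57.5 FPKM in the same treatments of KO-labelled cells. It rose in both genotypes (log2 change 0.28, SE 0.05, adjusted p = 0.00754 in control; log2 change 0.35, SE 0.05, adjusted p = 0.00157 in KO-labelled cells). Nolc1, a chaperone of snoRNPs, rose in control (log2 change 0.32, SE 0.07, adjusted p = 0.0141), a call lost without control DMSO library 2 (adjusted p = 0.0644). In KO-labelled cells Nolc1 narrowly missed the threshold (adjusted p = 0.0516). Nucleostemin (Gnl3), a nucleolar GTPase, showed the other order. Its levels overlapped in control at 55.8, 58.1 and 60.6 FPKM with DMSO and 59.8, 59.5 and 65.9 FPKM with SR9009, and were separate in KO-labelled cells at 52.7, 56.6 and 54.7 and 65.8, 66.7 and 65.2 FPKM (log2 change 0.27, SE 0.06, adjusted p = 0.0103). Mybbp1a, a nucleolar protein that binds MYB, overlapped between treatments in both genotypes (adjusted p = 0.329 and 0.33).

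**Figure D3:**
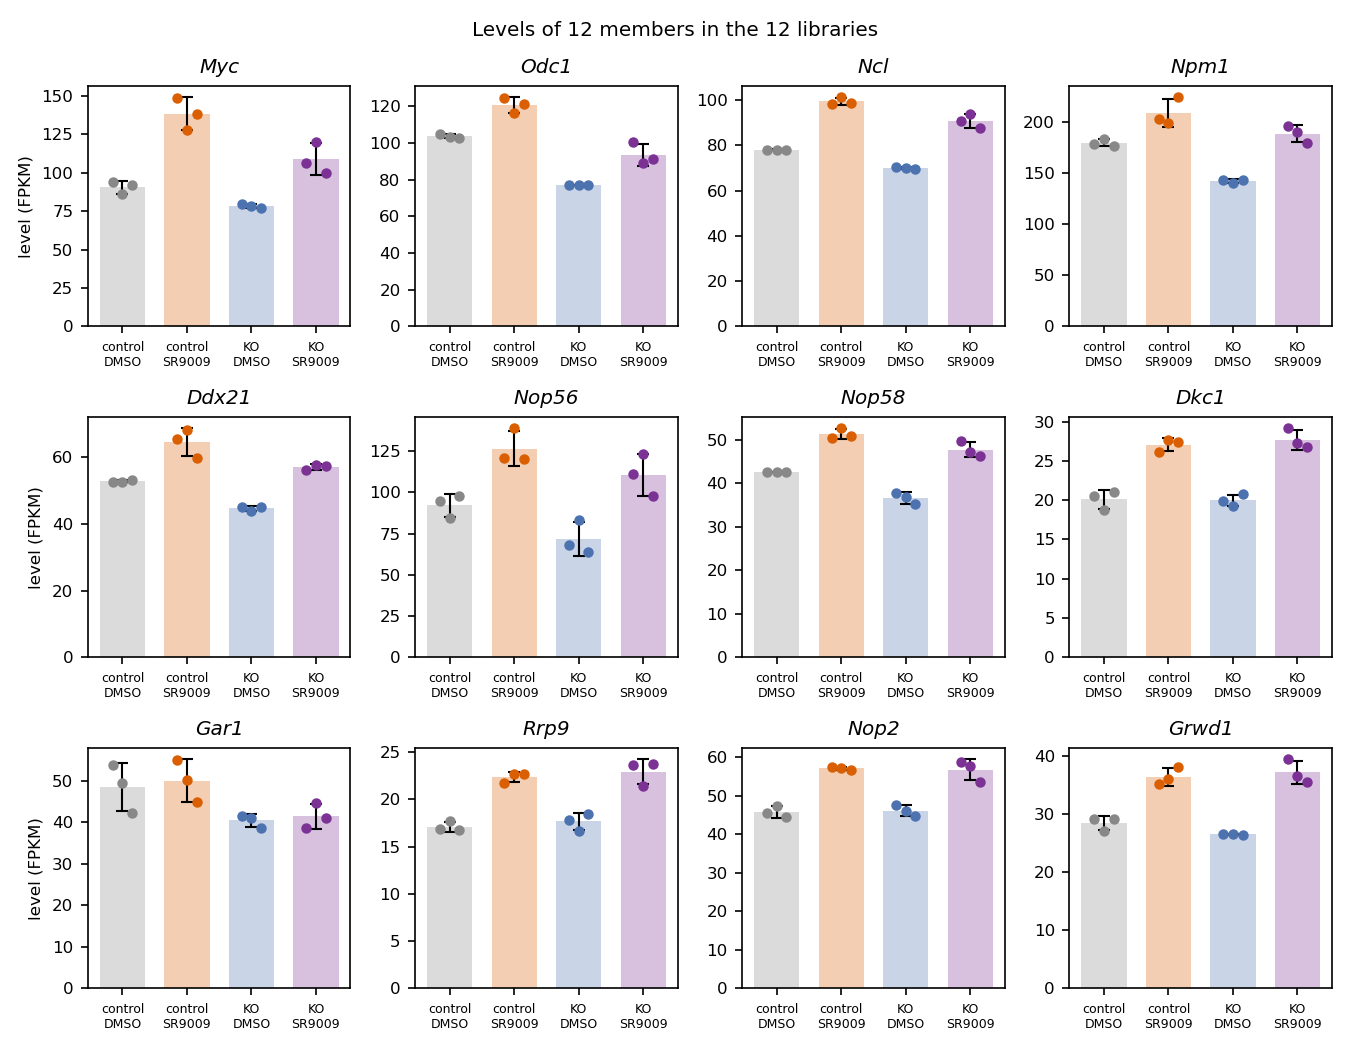
Levels in FPKM (linear axes from 0) of 12 members in each of the 12 libraries (points), with group means (bars) and SDs (error bars, n = 3). For Myc, Ncl and Nop58 the SR9009 libraries lie above the DMSO libraries of the same genotype, while those of Gar1 overlap. All of the 12 except Gar1 rose in both genotypes, so they do not represent the 37 members. Of those, 15 rose in both genotypes and 14 passed in neither.

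None of the 3 RNA polymerase I subunits passed in either genotype. Polr1a, the largest subunit, was at 9.66 ± 0.339 FPKM (SD, n = 3) in control DMSO and 11.7 ± 1.25 FPKM in control SR9009. Polr1b, the second largest, was at 15.7 ± 0.203 and 18.8 ± 0.784 FPKM. Polr1c, which RNA polymerase III shares, was at 28.2 ± 3.07 and 29.7 ± 2.73 FPKM. For Polr1a and Polr1b the control SR9009 libraries lay above the control DMSO libraries, with log2 changes of 0.24 for both and adjusted p = 0.142 and 0.0725. In KO-labelled cells all 3 overlapped between treatments.

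The snoRNPs come as box C/D particles, which guide methylation of ribosomal RNA, and box H/ACA particles, which guide conversion of uridine to pseudouridine. Of the 3 box C/D proteins Nop56 and Nop58 rose in both genotypes. Nop56, a core protein, was at 94.7, 84.3 and 97.7 FPKM in control DMSO and 121, 139 and 120.0 FPKM in control SR9009. In KO-labelled cells Nop56 was at 67.9, 83.2 and 64.0 and 111, 123 and 97.7 FPKM. Its libraries were widely spread, but the treatments did not overlap in either genotype. Its change was 0.45 log2 units in control (adjusted p = 0.0254), lost without control DMSO library 1 or 2 or control SR9009 library 2 (adjusted p = 0.0616 to 0.0992). In KO-labelled cells the change was 0.62, the largest of any member there (adjusted p = 0.00371). Nop58, its partner in the particle, was at 42.6, 42.6 and 42.6 FPKM in control DMSO and 50.4, 52.6 and 50.9 FPKM in control SR9009, and at 37.8, 36.9 and 35.2 and 49.7, 47.2 and 46.3 FPKM in KO-labelled cells. It rose with log2 change 0.26, SE 0.05, adjusted p = 0.00755 in control and log2 change 0.37, SE 0.05, adjusted p = 0.000659 in KO-labelled cells. Fibrillarin (Fbl), the methyltransferase itself, lay higher with SR9009 in every library of each genotype, 48.9 ± 2.47 against 57.2 ± 5.10 FPKM in control and 48.5 ± 0.919 against 53.0 ± 3.19 FPKM in KO-labelled cells, and did not pass (adjusted p = 0.0801 and 0.332).

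Of the 3 box H/ACA proteins only dyskerin (Dkc1), the pseudouridine synthase, passed, and it did so in both genotypes. Dkc1 was at 20.5, 18.8 and 21.0 FPKM in control DMSO and 26.1, 27.6 and 27.4 FPKM in control SR9009. In KO-labelled cells it was at 19.8, 19.3 and 20.7 and 29.1, 27.3 and 26.7 FPKM. The groups were separate by treatment and overlapped by genotype, with log2 change 0.41, SE 0.06, adjusted p = 0.00203 in control and log2 change 0.45, SE 0.06, adjusted p = 0.000848 in KO-labelled cells. Nhp2, which binds the guide RNA, was at 78.5, 86.2 and 78.4 FPKM in control DMSO and 86.0, 82.1 and 116 FPKM in control SR9009, where library 3 stood apart and libraries 1 and 2 lay within the DMSO range (adjusted p = 0.316). In KO-labelled cells Nhp2 was at 68.4, 71.9 and 76.5 FPKM with DMSO and 91.0, 88.4 and 78.6 FPKM with SR9009, without overlap (adjusted p = 0.212). Gar1, which helps release the product, moved least with SR9009 in control, at 53.9, 49.4 and 42.3 FPKM with DMSO and 55.1, 50.2 and 44.8 FPKM with SR9009 (log2 change 0.05, adjusted p = 0.84). Its KO-labelled levels were 41.6, 41.1 and 38.7 and 38.5, 44.6 and 41.2 FPKM, each below all control libraries of the same treatment. That a factor did not pass does not show that it was unaffected by SR9009.

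Of the 9 small subunit factors, 5 rose in control and 2 in KO-labelled cells, beside 3.69% and 5.32% of all genes. Rrp9, a protein of the U3 snoRNP that cuts the precursor, was at 16.9, 17.7 and 16.8 FPKM in control DMSO and 21.7, 22.7 and 22.7 FPKM in control SR9009. In KO-labelled cells Rrp9 was at 17.8, 16.7 and 18.5 and 23.6, 21.4 and 23.7 FPKM. It rose by 0.37 and 0.36 log2 units (adjusted p = 0.00428 and 0.00419). The gene model of Rrp9 overlaps that of Parp3 by 987 bp on the opposite strand, and since the strand setting of the counting is not given, reads of the pair cannot be told apart there. Wdr43, of the particle that couples transcription to processing, was at 35.6, 33.0 and 37.3 FPKM in control DMSO and 47.0, 44.5 and 42.0 FPKM in control SR9009. It was at 37.3, 37.9 and 35.4 and 48.5, 44.8 and 44.9 FPKM in KO-labelled cells, and rose in both (adjusted p = 0.00902 and 0.00903). Both Rrp9 and Wdr43 had separate treatment groups and overlapping genotypes.

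Rrp12, an export factor, Nop14, of the early small subunit particle, and Wdr75, of the same particle as Wdr43, passed in control and not in KO-labelled cells. Rrp12 was at 13.9 ± 0.430 FPKM in control DMSO and 18.8 ± 2.67 FPKM in control SR9009 (log2 change 0.40, SE 0.09, adjusted p = 0.0139), a call lost without control DMSO library 2 (adjusted p = 0.0551). Nop14 was at 25.6 ± 0.526 and 30.6 ± 1.72 FPKM (log2 change 0.25, SE 0.07, adjusted p = 0.0389), a call lost without any 1 library other than control SR9009 library 1, KO-labelled DMSO library 1 and KO-labelled DMSO library 2 (adjusted p = 0.0527 to 0.122). Wdr75 was at 14.4, 12.4 and 15.3 FPKM in control DMSO and 24.0, 18.6 and 17.1 FPKM in control SR9009 (log2 change 0.47, SE 0.12, adjusted p = 0.0371), a call lost without control DMSO library 1, 2 or 3, control SR9009 library 1 or 2 or KO-labelled SR9009 library 2 (adjusted p = 0.0543 to 0.135). In KO-labelled cells all 3 were separate by treatment, with adjusted p = 0.0586, 0.137 and 0.214 in that order. Heatr1 and Utp20, large scaffold proteins of the early particle, Tsr1, a late GTPase-like factor, and Bysl did not pass in either genotype. In control their log2 changes were 0.30, 0.27, 0.17 and 0.15, and in KO-labelled cells 0.16, 0.06, 0.25 and 0.10. The model of Tsr1 overlaps that of Srr on the opposite strand by 2984 bp.

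For all 11 large subunit factors the SR9009 libraries lay wholly above the DMSO libraries in both genotypes (10.8% of all genes in control and 16.9% in KO-labelled cells). Of these factors 7 rose in control and 6 in KO-labelled cells, beside 3.69% and 5.32% of all genes. Nop2, a methyltransferase of the large subunit RNA, was at 45.5, 47.5 and 44.4 FPKM in control DMSO and 57.4, 57.2 and 56.8 FPKM in control SR9009. In KO-labelled cells Nop2, whose E-box is printed above, was at 47.6, 46.1 and 44.7 and 58.8, 57.8 and 53.7 FPKM. It rose in control (log2 change 0.31, SE 0.05, adjusted p = 0.0033) and in KO-labelled cells (log2 change 0.29, SE 0.05, adjusted p = 0.00411). Grwd1, a histone-binding WD-repeat protein of the large subunit pathway, was at 29.2, 27.0 and 29.0 FPKM in control DMSO and 35.1, 36.0 and 38.1 FPKM in control SR9009. In KO-labelled cells Grwd1 was at 26.6, 26.5 and 26.3 and 39.4, 36.5 and 35.5 FPKM. Its change was 0.35 log2 units in control (adjusted p = 0.00374) and 0.47 in KO-labelled cells (adjusted p = 0.000401). Ppan, a factor of early large subunit assembly, was at 50.3, 48.5 and 47.9 FPKM in control DMSO and 58.3, 58.7 and 61.3 FPKM in control SR9009, and rose (log2 change 0.28, SE 0.05, adjusted p = 0.00556). In KO-labelled cells Ppan was at 53.2, 50.2 and 50.8 and 57.2, 55.2 and 53.6 FPKM, separate but closer (adjusted p = 0.247).

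Pes1, Bop1 and Wdr12 form the PeBoW complex, and Wdr12 was the only one of them to pass. Wdr12 was at 11.8, 11.2 and 10.1 FPKM in control DMSO and 15.8, 13.5 and 14.2 FPKM in control SR9009, and rose (log2 change 0.36, SE 0.09, adjusted p = 0.0252), a call lost without control DMSO library 2 or 3 or control SR9009 library 1 (adjusted p = 0.0644 to 0.105). It also rose in KO-labelled cells, from 11.1 ± 0.625 to 14.1 ± 1.17 FPKM (adjusted p = 0.0381), a call lost without control DMSO library 2, KO-labelled DMSO library 1, 2 or 3 or KO-labelled SR9009 library 1 or 2 (adjusted p = 0.0547 to 0.158). Pes1, at 27.4 ± 0.733 and 30.8 ± 0.529 FPKM in control, and Bop1, at 28.5 ± 1.20 and 31.1 ± 1.44 FPKM, did not pass in either genotype, with log2 changes between 0.12 and 0.17. Differences between members of the complex were not tested.

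Ftsj3, a methyltransferase, Ebna1bp2 and Rrp1b, both of early large subunit particles, gave calls that hung on many single libraries. Ftsj3 rose from 45.7 ± 0.858 to 53.6 ± 1.32 FPKM in control (adjusted p = 0.0165), a call lost without control DMSO library 2 or 3 (adjusted p = 0.0579 to 0.0682). It rose from 45.6 ± 1.64 to 51.7 ± 1.68 FPKM in KO-labelled cells (adjusted p = 0.0454), lost without any 1 library other than control SR9009 library 3 and KO-labelled DMSO library 1 (adjusted p = 0.0503 to 0.165). Ebna1bp2 rose from 20.4 ± 0.579 to 25.8 ± 3.08 FPKM in control (adjusted p = 0.0482), lost without any 1 library other than control SR9009 library 2 and KO-labelled DMSO library 2 (adjusted p = 0.0563 to 0.15). In KO-labelled cells it rose from 19.2 ± 1.80 to 24.5 ± 1.41 FPKM (adjusted p = 0.0346), lost without control DMSO library 2, KO-labelled DMSO library 1 or 3 or KO-labelled SR9009 library 1 or 2 (adjusted p = 0.0502 to 0.127). Rrp1b was at 7.15, 8.01 and 6.81 FPKM in control DMSO and 11.7, 12.7 and 8.12 FPKM in control SR9009, a wide spread with separate groups (log2 change 0.49, SE 0.14, adjusted p = 0.0454), and the call was lost without any 1 library other than control SR9009 library 3 (adjusted p = 0.0532 to 0.148). Nip7, a late factor, passed in KO-labelled cells, from 12.4 ± 0.886 to 15.3 ± 1.60 FPKM (adjusted p = 0.0443), lost without control DMSO library 1, 2 or 3, control SR9009 library 2, KO-labelled DMSO library 2 or 3 or KO-labelled SR9009 library 1 or 2 (adjusted p = 0.0561 to 0.18). Its change in control had the same size, 0.28 against 0.28 log2 units (adjusted p = 0.0534 in control). Nop16, at 30.9 ± 0.956 and 37.7 ± 5.04 FPKM in control, did not pass in either genotype.

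Whether SR9009 acted differently on the members in KO-labelled and control libraries was tested as the difference of both SR9009 effects (the interaction). It passed for 0 of the 37 members (limma, smallest adjusted p = 0.673) and for 0.0268% of all genes, 0.0178% higher and 0.00892% lower. At an unadjusted p under 0.05 there were 3 members, Npm1, Gnl3 and Ppan, and 787 of all genes. The difference, KO-labelled minus control, ran from -0.21 (Utp20) to 0.19 log2 units (Npm1), with a median of -0.01. For Npm1 it was 0.19, for Gnl3 0.18 and for Ppan -0.17. The 95% intervals reached 0.14 to 0.42 log2 units to each side of the estimate, with a median of 0.22, which is close to the size of the SR9009 effects themselves. So the 6 members that passed in control and not in KO-labelled cells (Nolc1, Nop14, Rrp12, Wdr75, Rrp1b and Ppan) and the 2 of the opposite kind (Gnl3 and Nip7) are not shown to differ between genotypes. A further 14 members passed in neither genotype.

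Between genotypes in DMSO, 6 members fell in KO-labelled cells and 0 rose, 16.2% of the members, while 20.0% of all genes passed, 8.32% lower and 11.7% higher. The 6 were Odc1, Npm1, Ddx21, Nop58, Ncl and Nop56, which comprise 3 nucleolar proteins, both core box C/D proteins that rose with SR9009, and the polyamine enzyme. Each of them rose with SR9009 in both genotypes, but the comparisons share the DMSO libraries and are not independent. Odc1 showed the largest change, with 3 control libraries within 103 to 105 FPKM and 3 KO-labelled ones within 77.0 to 77.3 FPKM (log2 change -0.42, SE 0.05, adjusted p = 0.000133). Nop56 was next in size (log2 change -0.36, SE 0.11, adjusted p = 0.0336), a call lost without control DMSO library 1 or 3 or KO-labelled DMSO library 1 or 3 (adjusted p = 0.0965 to 0.126). Then came Npm1 (log2 change -0.33, SE 0.05, adjusted p = 0.000962), Ddx21 (log2 change -0.24, SE 0.05, adjusted p = 0.00737) and Nop58 (log2 change -0.21, SE 0.05, adjusted p = 0.0105). Ncl changed least of the 6 (log2 change -0.15, SE 0.04, adjusted p = 0.0299), a call lost without control DMSO library 1, 2 or 3 or KO-labelled DMSO library 1, 2 or 3 (adjusted p = 0.0666 to 0.0832). Myc was lower in all 3 KO-labelled DMSO libraries than in any control DMSO library and missed the threshold (log2 change -0.21, adjusted p = 0.0693).

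The other 31 members did not pass in this comparison. The median member log2 change in KO-labelled DMSO cells was -0.01, beside 0.04 over all genes, with 17 estimates above 0 and 20 below. KO-labelled libraries lay wholly below control for 11 members (17.5% of all genes) and wholly above for 2, Polr1b and Bop1 (23.7% of all genes). The 9 small subunit factors and 11 large subunit factors had 0 calls, with medians of 0.05 and 0.00. Of the 19 members at or above the median member level, 6 fell with a median of -0.15, and of the 18 below it 0 fell with a median of 0.05. When the libraries were scaled to the same sum, 2 of the 6 calls were left, Odc1 and Npm1, and the calls over all genes were 1616 higher and 699 lower in place of 1307 higher and 933 lower. When they were scaled by median ratios, 8 members passed as lower, and the calls over all genes were 1135 higher and 1078 lower. After quantile normalization 4 members passed as lower. Markers of Kupffer cells, which are liver macrophages, also differed. They summed to 47.8 to 59.7 FPKM in control DMSO and 34.7 to 46.1 FPKM in KO-labelled DMSO (4 of 8 tested fell and 1 rose), and their part in the result was not tested. Endothelial markers summed to 5.43 to 6.17 and 8.60 to 12.8 FPKM (2 of 3 tested rose), and their part was not tested either. Those of bile duct cells summed to 2.87 to 3.81 and 8.09 to 11.7 FPKM, with Krt7 below 0.1 FPKM (the 1 tested, Sox9, rose). Of the 7 hepatocyte markers 3 rose, and the part of all these markers was not tested. None of the tested Kupffer or endothelial markers passed with SR9009 in either genotype.

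Under SR9009, 3 members were lower in KO-labelled than in control cells and 0 higher, while 20.4% of all genes passed, 7.43% lower and 12.9% higher. Myc fell in this comparison (log2 change -0.35, SE 0.07, adjusted p = 0.00531), with KO-labelled libraries at 107, 120.1 and 99.9 FPKM and control libraries at 149, 128 and 139 FPKM. Odc1 fell as well (log2 change -0.37, SE 0.05, adjusted p = 0.000357). Ddx21 passed narrowly (log2 change -0.17, SE 0.05, adjusted p = 0.0417) and was lost without any 1 library other than control SR9009 library 3 (adjusted p = 0.0535 to 0.127). Myc and Odc1, the pair outside the assembly pathway, passed under every alternative run. The median member log2 change was -0.05, beside 0.06 over all genes, and 9 members passed as lower when libraries were scaled by median ratios. When they were scaled to the same sum, 2 members were higher and 2 lower, and the calls over all genes were 1853 higher and 657 lower in place of 1450 higher and 833 lower. With median ratios the latter were 1042 higher and 1120 lower. Cell type markers differed here too. Bile duct markers summed to 3.19 to 4.91 FPKM in control SR9009 and 10.97 to 12.04 FPKM in KO-labelled SR9009 (the 1 tested rose). Kupffer markers summed to 49.6 to 52.8 FPKM in control SR9009 and 44.3 to 46.8 FPKM in KO-labelled SR9009. Of 8 tested Kupffer markers 1 rose and 1 fell, and 7 of the 8 estimates were below 0. Endothelial markers summed to 5.85 to 6.95 and 8.27 to 8.73 FPKM, and 0 of the 3 tested passed. Of 7 hepatocyte markers 3 rose and 2 fell. The part of these markers in the result was not tested. In 35 of the 37 members, all except Odc1 and Gar1, the KO-labelled SR9009 mean was above the control DMSO mean.

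**Figure D4:**
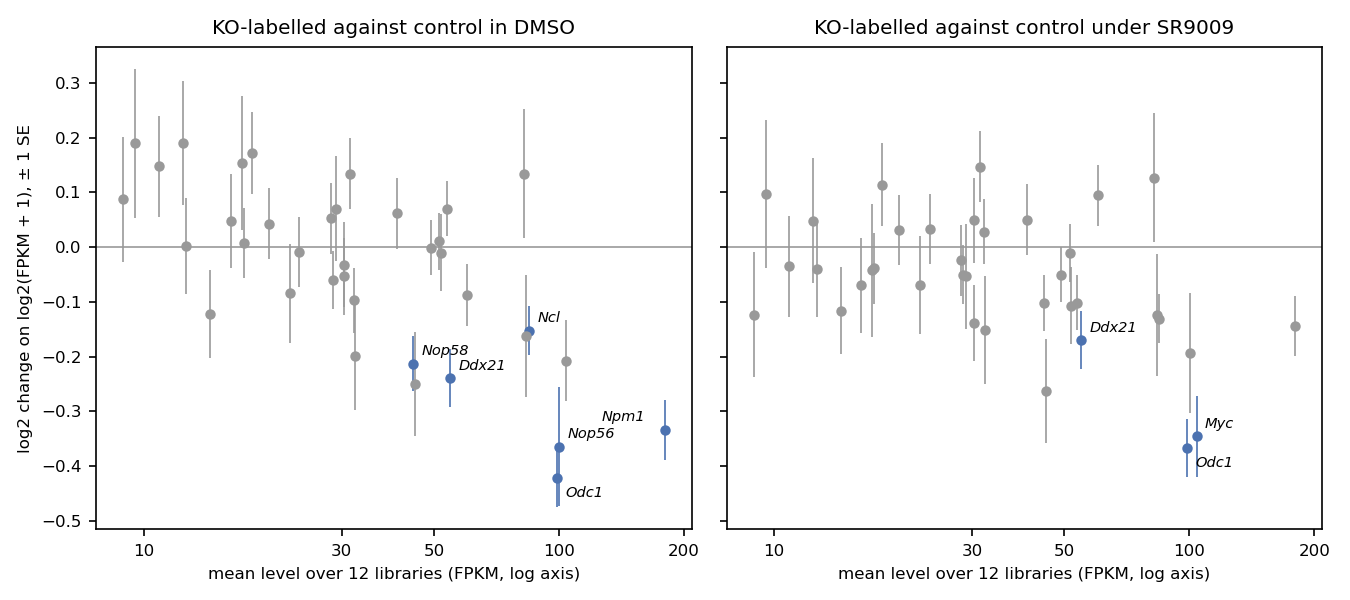
Log2 change of KO-labelled against control cells (± 1 SE, on log2(FPKM + 1)) in DMSO (left) and under SR9009 (right) for the 37 members, against their mean level over 12 libraries (FPKM, log axis); blue points with names passed an adjusted p of 0.05. The 6 named points on the left and 3 on the right lie below 0, at mean levels between 44.6 and 179.5 FPKM.

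Other genes of the same pathways were read from lists that hold none of the 37 members. Of all genes, 3.69% were called higher and 4.55% lower with SR9009 in control, and 5.32% and 4.56% in KO-labelled cells. Values are given for genes whose call held with each library left out in turn, a choice made after the values were seen. Of 12 tested other subunits and factors of RNA polymerase I, 3 rose with SR9009 in control (25%), 4 rose in KO-labelled cells (33.3%) and 0 fell in either. Cd3eap, a subunit of the polymerase, rose from 16.2 ± 1.13 to 23.2 ± 2.27 FPKM in control (adjusted p = 0.00382). Of 11 snoRNP core and assembly proteins, 4 rose in control (36.4%) and 3 in KO-labelled cells (27.3%). Znhit6, of the box C/D assembly machinery, rose from 7.18 ± 0.113 to 9.64 ± 0.623 FPKM in control (adjusted p = 0.00719). Nhp2l1, a core protein of box C/D particles, rose from 42.1 ± 0.399 to 55.7 ± 3.92 FPKM in KO-labelled cells (adjusted p = 0.00218). Of 39 other small subunit factors, 5 rose (12.8%) and 1 fell (2.56%) in control. In KO-labelled cells 14 rose (35.9%) and 1 fell (2.56%), the 1 being Dcaf13 in both genotypes. Pwp2, of the U3 particle, rose from 16.0 ± 0.228 to 20.9 ± 1.01 FPKM in control (adjusted p = 0.00612). Of 40 other large subunit factors, 3 rose (7.5%) and 1 fell (2.5%) in control. In KO-labelled cells 10 rose (25%) and 1 fell (2.5%), the 1 being Npm3, a relative of Npm1, in both genotypes. Rrs1, which brings the 5S RNA into the large subunit, rose from 42.7 ± 1.18 to 57.1 ± 2.24 FPKM in control (adjusted p = 0.00103). Npm3 fell in KO-labelled cells from 99.7 ± 6.21 to 75.8 ± 5.76 FPKM (adjusted p = 0.00802). Of 11 tested genes on the list of the RNA exosome, which trims the precursor, 2 rose in control (18.2%) and 1 in KO-labelled cells (9.09%). Exosc8, of this list, rose from 14.7 ± 2.03 to 23.5 ± 1.87 FPKM in control (adjusted p = 0.00229). The medians in control were 0.22 for the polymerase list, 0.15 for snoRNP assembly, 0.12 and 0.18 for the other small and large subunit factors, and 0.12 for the exosome, beside 0.27 for the 37 members and -0.02 for all genes.

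The lists around MYC itself are read against the same shares of all genes. These were 3.69% higher and 4.55% lower in control, and 5.32% and 4.56% in KO-labelled cells. In the network of MYC partners and rivals, 1 of 12 tested genes fell (8.33%) and 0 rose in each genotype, with a median of 0.00 in control. The 1 was Mxd4, a MAX partner that opposes MYC, which was at 20.2, 19.0 and 19.6 FPKM in control DMSO and 13.1, 13.0 and 12.8 FPKM in control SR9009. In KO-labelled cells Mxd4 was at 19.7, 20.4 and 19.5 and 12.7, 13.1 and 14.0 FPKM, so all 6 SR9009 libraries were below all 6 DMSO libraries. Mxd4 fell in control (log2 change -0.56, SE 0.06, adjusted p = 0.00015) and in KO-labelled cells (log2 change -0.55, SE 0.06, adjusted p = 0.000141). Max, the partner of MYC, was at 15.1 ± 0.395 FPKM in control DMSO and 16.5 ± 0.800 FPKM in control SR9009 (adjusted p = 0.375). Of 26 tested MYC targets outside the ribosome, 2 rose (7.69%) and 1 fell (3.85%) in control. In KO-labelled cells 3 rose (11.5%) and 1 fell (3.85%). The medians were 0.10 in control and 0.09 in KO-labelled cells. Mat2a, which makes S-adenosylmethionine, rose from 66.0 ± 1.84 to 87.3 ± 4.63 FPKM in control (adjusted p = 0.000861) and from 77.4 ± 1.40 to 109 ± 4.45 FPKM in KO-labelled cells. Nampt, of NAD synthesis, fell from 27.2 ± 0.688 to 18.1 ± 0.258 FPKM in control (adjusted p = 0.000289) and from 23.6 ± 2.07 to 17.7 ± 0.113 FPKM in KO-labelled cells.

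**Figure D5:**
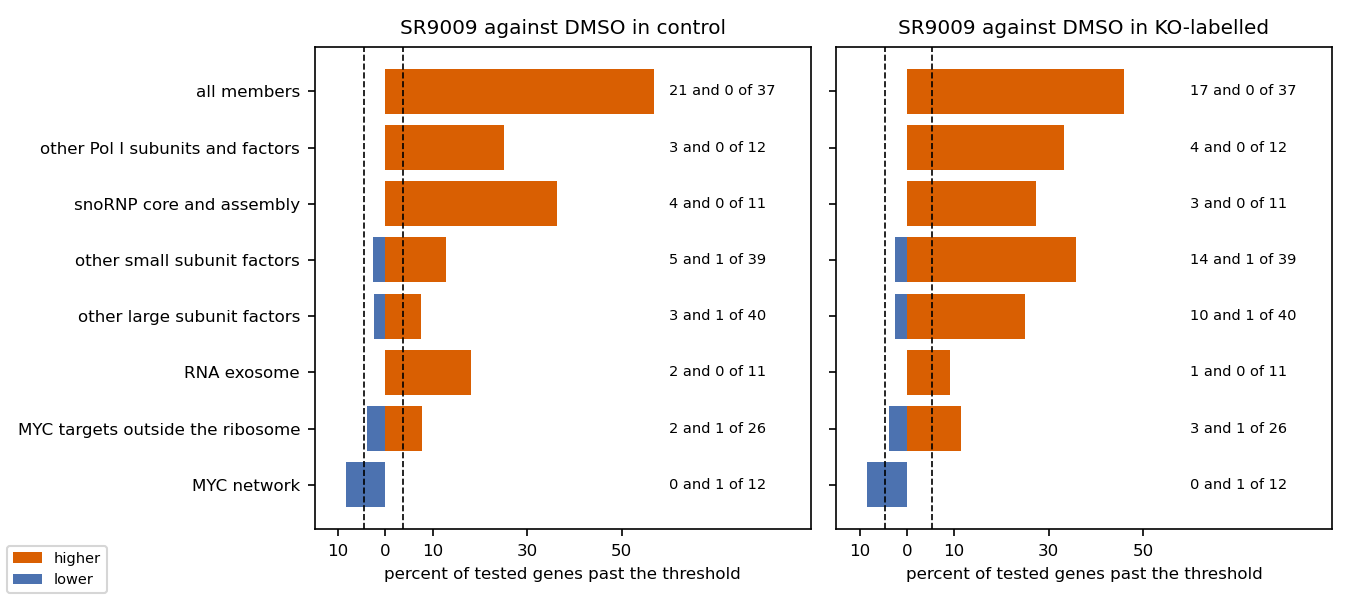
Percent of tested genes that passed an adjusted p of 0.05 with SR9009, higher (orange, right of 0) or lower (blue, left of 0), in the 37 members and 7 related lists, in control (left panel) and KO-labelled cells (right panel), with counts higher and lower beside each bar. Dashed lines mark the shares of all 11213 genes, 3.69% higher and 4.55% lower in control and 5.32% and 4.56% in KO-labelled cells; the bar of the members reaches 56.8% and 45.9%.

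For the genotype comparison in DMSO the same lists are read against 11.7% of all genes higher and 8.32% lower. Of the other polymerase I genes 2, Ubtf and Taf1c, rose in KO-labelled cells and 0 fell. Of the 39 other small subunit factors 1 rose (2.56%) and 3 fell (7.69%), both shares below those of all genes, and Riok2, a kinase of late small subunit assembly, had a larger change than any of the 37 members. Riok2 stood at 21.7 ± 0.606 FPKM in control DMSO and 12.8 ± 0.428 FPKM in KO-labelled DMSO (log2 change -0.72, SE 0.06, adjusted p = 2.43e-06). Of the 40 other large subunit factors 2 rose and 2 fell (5% each, also below those shares), of the snoRNP assembly list 1 fell and of the exosome list 0 passed. In the MYC network Mlx, a MAX-like partner of the carbohydrate sensor ChREBP, fell from 10.8 ± 0.944 to 7.86 ± 0.838 FPKM (adjusted p = 0.00493) and Mlxipl, which encodes ChREBP itself, rose. Of the MYC targets outside the ribosome 2 rose and 2 fell. Lactate dehydrogenase A (Ldha) fell from 568 ± 14.3 to 416 ± 18.8 FPKM (adjusted p = 0.000637) and Mat2a rose from 66.0 ± 1.84 to 77.4 ± 1.40 FPKM (adjusted p = 0.0102).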

How the data were processed

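Messenger RNA was measured in 12 hepatocyte libraries, 3 for each of 4 groups taken from the sample labels. The submitters' processing notes list HISAT2, StringTie and mm9, without versions, annotation release or strandedness. The authors deposited 1 table of gene levels with the columns of a StringTie abundance file. Its header names no unit, and the deposited values were read as FPKM because the library totals differ, which TPM totals would not. Read totals were not stated. Depth was therefore estimated relative to control DMSO library 1, from the size of the smallest step in the values of short genes. At most 0.0535% of tested genes held equal values in 2 libraries.

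Values were transformed as log2(FPKM + 1), and a linear model with 4 group means was fitted to the 11213 genes that reached 1 FPKM in 3 or more libraries. limma 3.58.1 was used in R 4.3.3, with its trended and robust variances. Benjamini-Hochberg adjustment ran over all of these genes, with 0.05 as the threshold. Changes on this scale understate those of low genes. Errors after ± are SDs over 3 libraries, and folds are ratios of group means. The fit was tested on simulated data.

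The 37 members, their roles, the other lists and the tests were chosen with earlier results of these data known. The rule for names covered every member, Nr1d1, Nr1d2 and, from each list, up to 4 genes with the smallest p in SR9009 against DMSO in control and up to 4 in KO-labelled against control in DMSO; Dcaf13 was named after its values were seen. Alternatives varied the pseudocount, filter, scaling, variance model, replicate block, libraries and groups fitted. The main fit did not pair libraries by replicate number, and the labels do not say whether same-numbered libraries belong together. Repeating the alternatives for the other lists and for Nr1d1 and Nr1d2 was decided after seeing the data. Promoters came from a RefSeq table of another build (GRCm38.p6) and were matched by symbol only. Markers of 6 cell types were read. Those of stellate cells and lymphocytes were too low for any to be tested, and the 1 tested cholangiocyte marker rose in KO-labelled DMSO cells.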

Additional observations from a re-analysis of the deposited data

How the results depend on the processing

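The SR9009 rise of the members kept its direction under every alternative run, with 8 to 23 members higher in control, 13 to 24 in KO-labelled cells and 0 lower in either. Leaving out each library in turn gave 10 to 20 members in control (10 without control DMSO library 2 and 13 without control DMSO library 3) and 13 to 24 in KO-labelled cells, with medians of 0.26 to 0.31 and 0.26 to 0.29. The count in control was 13 without the 2 shallowest libraries and 8 with only the groups compared; the latter fits use fewer libraries. Between genotypes in DMSO the count was 2 when scaled to the same sum, 8 with median ratios, 4 after quantile normalization and 4 to 7 with a library left out. Its median was 0.0511 and -0.0444 with sum and median-ratio scaling, and -0.02 to 0.01 with a library left out. Between genotypes under SR9009 the count was 9 with median ratios, and 2 to 4 with a library left out. Its median was 0.0130 with sum scaling, a reversal, -0.117 with median ratios, -0.0111 without the 2 shallowest libraries, and -0.0810 to -0.0111 with a library left out. The cause was not tested. The interaction called 0 members throughout, and it could not be fitted with only 2 groups. In the comparison of genotypes under SR9009, 4 other large subunit factors passed with median ratios, 3 of them lower, in place of 1 higher, and 1 other polymerase I factor passed as lower without control SR9009 library 2 in place of 1 higher.

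Replicate numbers are shared between groups, and same-numbered libraries deviated together in 1 of 18 pairs (r over 0.1), with r from -0.11 to 0.12, against -0.12 to 0.18 for other pairs. Of the 12 libraries, 5 correlated best with their own number. With the replicate block, 17 members passed in control, 13 in KO-labelled cells, 6 between genotypes in DMSO, 3 under SR9009 and 0 for the interaction. Relative depth ranged from 55.5% to 100%; its effect on single members was tested only by leaving out the 2 shallowest libraries.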

Other observations

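Many genes of ribosome assembly carry small nucleolar RNAs in their introns. Among the deposited genes, 22 named snoRNA models lay inside 9 of the 37 members on the same strand. Of these 9 hosts, 7 rose with SR9009 in control and 7 in KO-labelled cells, with medians of 0.28 and 0.31 log2 units. Of the other 28 members, 14 and 10 rose, with medians of 0.27 and 0.24. Of all genes, 3.69% rose with SR9009 in control and 5.32% in KO-labelled cells. In KO-labelled DMSO cells 4 of the 9 hosts and 2 of the other 28 fell, with medians of -0.09 and 0.00, while 8.32% of all genes fell. The 6 members that fell were all among the 19 at or above the median member level. The difference between hosts and other members was not tested.

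Models on the opposite strand overlapped 13 members, and in 9 of them the overlapping model reached a mean of 1 FPKM. The 9 were Gnl3, Mybbp1a, Nop56, Dkc1, Nhp2, Rrp9, Tsr1, Bysl and Bop1. The overlap was 5 bp for Nop56 with Idh3b, which stood at a mean of 85.0 FPKM, and 45 bp for Dkc1 with Mpp1.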
